A study of Mus musculus with 8 samples.

Results

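Irx3 and Irx5 are neighbouring Iroquois homeobox genes on mouse chromosome 8. DNA methylation around them was followed with 63 probes of a CpG island array, chosen because a scanner file names them Irx3 (23 probes) or Irx5 (40 probes), of 88737 probes that are not controls. The rule itself uses the probe name and no measured value, but both genes were picked with earlier results of these data known. The gene names stand in 2 of the 8 files, and these differ for 8 of the 40 probes: the earlier design calls them Irx5 and the later one 4933436C20Rik, a RefSeq synonym of Crnde, a long non-coding RNA gene beside Irx5. The 8 were kept and are called Crnde-named below. After 6 probes with a dim input signal were left out, 57 remained, 22 for Irx3 and 35 for Irx5.

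Iroquois genes encode homeodomain transcription factors of the TALE class, which repress and activate targets during patterning of the neural tube, limb and heart. Mammalian Iroquois genes lie in a pair of clusters, one with Irx3, Irx5 and Irx6 and the other with Irx1, Irx2 and Irx4. Irx5 shapes the gradient of repolarisation across the wall of the heart ventricle in mice, and elements within the nearby Fto gene act on Irx3 and Irx5. CpG islands of such developmental genes usually carry little DNA methylation in embryonic stem (ES) cells, where Polycomb complexes occupy many of them.

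The study asked about a demethylation pathway that acts at CpG islands of mouse ES cells, and each of its 8 groups is 1 array. The ES groups were aid-/- (without the cytidine deaminase AID), mbd4-/- (without Mbd4, a DNA repair glycosylase with a methyl-CpG binding domain), a Gadd45a knockdown (Gadd45a is a DNA damage response gene) and wild type. The tissue groups were liver and spleen of aid-/- mice and liver and spleen of mbd4-/- mice, all C57BL6/J and 6 months old. Wild-type tissue was not analysed here, so a genotype can be set only against the other one in liver and spleen. The labels give neither the strain nor the number of clones behind each ES line. They do not say whether the tissue DNA came from 1 animal or from several, and they credit it to other laboratories.

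Methylated DNA was precipitated with an antibody against 5-methylcytidine and labelled with Cy5, and the input DNA of the same sample was labelled with Cy3. The value of a probe is the log2 ratio of antibody-bound over input signal minus the median of that array. It ranks a site against the other sites on the array and is no percentage of methylated molecules. Probes whose starts lay no more than 500 bp apart formed a region, and regions are given as the mean and SD over their probes. Since each group is a single array, differences between 2 arrays describe those arrays and carry no test. By the size rule used here, regions are listed as higher or lower when the mean differs by at least 1 log2 and no fewer than 75% of probes differ that way.

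The arrays themselves differed. The bound signal was above background for 70.6% (aid-/- ES cells) to 96.2% (mbd4-/- liver) of probes. The 98th percentile of the regions, the plateau, was 4.44 and 4.26 in aid-/- and mbd4-/- ES cells, 2.72 in the Gadd45a knockdown and 3.34 in wild-type ES cells. In liver it was 2.25 (aid-/-) and 3.98 (mbd4-/-), and in spleen 2.28 (aid-/-) and 3.63 (mbd4-/-). The input signal of chromosome 8 relative to the other autosomes was raised on 3 ES arrays, by 0.38 log2 in aid-/-, 0.33 in the Gadd45a knockdown and 0.30 in wild type, and stood at −0.01 in mbd4-/-. Its part in the Irx3 and Irx5 ratios, which are divided by input, was not tested.

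The 57 probes fell into 4 regions and a pair, in build mm9. Irx3 had a downstream region of 4 probes (chr8:94321467-94322005), a gene region of 16 probes over its start and gene body side (chr8:94323540-94326175) and a pair of probes upstream (chr8:94329381-94329560), which is too few for the minimum of 3 probes a region. Irx5 had a gene region of 32 probes (chr8:94879507-94884708), 24 of them Irx5-named and 8 Crnde-named, and a downstream region of 3 probes (chr8:94889418-94889853). Downstream of Irx5 here means the side away from Crnde. The Irx3 and Irx5 groups lie 550 kb apart. No mm9 gene annotation was used, so exons, introns and untranslated regions are not assigned. The Irx3 start site was placed by matching 1 probe to the RefSeq promoter, at position 94325553 on the minus strand. The Crnde start was placed in the same way, at position 94880019 on the minus strand, within the Irx5 gene region.

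Irx3 and Irx5 probes resembled the array as a whole in composition. Irx3 probes averaged 56.4% GC and 2.27 CpG, Irx5 probes 55.4% GC and 2.34 CpG, and all probes kept 56.7% GC and 2.59 CpG. The probes that carry the differences described below are shown as the scanner file writes them, with each CpG, the site the antibody can read when methylated, in capitals. The downstream region of Irx3, low in the Gadd45a knockdown, was read by these 4 probes, which hold 5 CpG.
A_68_P26061501: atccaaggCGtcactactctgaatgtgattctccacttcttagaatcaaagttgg
A_68_P26061502: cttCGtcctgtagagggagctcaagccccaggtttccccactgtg
A_68_P26061503: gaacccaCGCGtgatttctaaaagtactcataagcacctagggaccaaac
A_68_P26061505: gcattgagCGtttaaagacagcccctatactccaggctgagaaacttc

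The 10 probes of the Irx3 gene region farthest downstream, where wild-type ES cells stood above every other array, hold 24 CpG. The first of them holds none, and the precipitated fragments are longer than a probe.
A_68_P26061519: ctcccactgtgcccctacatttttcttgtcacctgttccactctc
A_68_P26061520: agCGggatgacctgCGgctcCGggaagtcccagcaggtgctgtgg
A_68_P26061521: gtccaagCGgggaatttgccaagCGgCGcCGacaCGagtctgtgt
A_68_P26061523: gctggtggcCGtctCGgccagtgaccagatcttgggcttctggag
A_68_P26061524: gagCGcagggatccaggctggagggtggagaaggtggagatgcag
A_68_P26061526: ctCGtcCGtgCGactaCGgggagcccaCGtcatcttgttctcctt
A_68_P26061528: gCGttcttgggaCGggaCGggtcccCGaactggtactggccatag
A_68_P26061529: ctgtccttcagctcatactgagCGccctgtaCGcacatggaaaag
A_68_P26061530: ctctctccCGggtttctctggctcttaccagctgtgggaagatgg
A_68_P26061531: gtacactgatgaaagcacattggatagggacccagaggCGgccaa

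The downstream region of Irx5, high in ES cells, was read by 3 probes with 5 CpG.
A_68_P26065203: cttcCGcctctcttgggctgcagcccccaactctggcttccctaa
A_68_P26065204: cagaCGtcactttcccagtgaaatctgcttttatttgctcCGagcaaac
A_68_P26065206: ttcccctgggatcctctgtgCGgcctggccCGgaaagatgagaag

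For contrast, 2 probes of the Irx5 gene region were among the lowest of all members.
A_68_P26065129: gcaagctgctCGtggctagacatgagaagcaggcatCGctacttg
A_68_P26065145: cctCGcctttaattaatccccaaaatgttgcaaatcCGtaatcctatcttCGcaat

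The RefSeq promoter of Irx3 (assembly GRCm38.p6, chr8:91801605-91801904, minus strand, 250 bases before the start and 50 after) holds 14 CpG, and is shown because the wild-type signal of the gene region ended downstream of it. Irx5 has no entry in the promoter table used.
Irx3 promoter: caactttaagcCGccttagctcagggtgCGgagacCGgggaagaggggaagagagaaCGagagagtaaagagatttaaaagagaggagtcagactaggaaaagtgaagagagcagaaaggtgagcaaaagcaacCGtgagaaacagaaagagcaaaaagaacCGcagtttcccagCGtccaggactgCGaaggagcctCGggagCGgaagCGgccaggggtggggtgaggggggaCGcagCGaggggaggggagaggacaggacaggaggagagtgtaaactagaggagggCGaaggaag

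In wild-type ES cells the Irx3 gene region carried antibody-bound DNA that stood lower in the mutants and in tissue. The region had means of −0.52 ± 1.03 in aid-/-, −0.20 ± 0.78 in mbd4-/-, 0.10 ± 1.23 in the Gadd45a knockdown and 1.11 ± 1.29 in wild-type ES cells (SD over 16 probes). Liver had −0.09 ± 0.48 in aid-/- and −0.15 ± 0.82 in mbd4-/-, and spleen −0.02 ± 0.49 in aid-/- and −0.21 ± 0.69 in mbd4-/-. The other 7 arrays lay between −0.52 and 0.10, and wild-type ES cells stood 1.01 above the highest of them. The value ranked at the 30.8th percentile of all regions in aid-/-, the 48.6th in mbd4-/-, the 55.5th in the knockdown and the 91.5th in wild type.

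The wild-type signal lay in 1 stretch. Over the 10 probes farthest downstream, 546 to 2013 bases past the start (a split made after the values were seen), the means were −0.20 ± 0.50 in aid-/-, 0.06 ± 0.66 in mbd4-/-, −0.23 ± 0.98 in the Gadd45a knockdown and 1.92 ± 0.72 in wild-type ES cells. Liver stood at 0.06 and −0.06 in aid-/- and mbd4-/-, and spleen at 0.14 and −0.22. Over the whole gene region, wild type was the highest of the 8 arrays on 10 of 16 probes, where 4.88% of all probes on the array had wild type highest, and those 10 are the stretch. Against wild type, 10 of the 16 probes were lower by at least 1 in aid-/-, 9 in mbd4-/- and 9 in the knockdown, where 11.9%, 13.5% and 16.7% of all probes were. In the stretch, the margin of wild type over the next array was 0.22 to 3.12 and reached 1 on 6 probes. The tallest was probe A_68_P26061523, with −0.65 in aid-/-, 0.07 in mbd4-/-, −1.93 in the Gadd45a knockdown and 3.45 in wild-type ES cells. The gap came from the bound channel: the median bound signal of the 10 probes was 1.09 times the array median in aid-/-, 0.73 times in mbd4-/-, 0.86 times in the knockdown and 3.28 times in wild type. The input signal was 1.13, 0.59, 1.08 and 0.90 times the array median on the same 4 arrays. The spots lay in rows 63 to 494 of 528, and 9 of the 10 probes had bound signal above background on all 8 arrays.

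Nearer the Irx3 start the pattern was another. The other 6 probes of the gene region averaged −1.05 ± 1.48 in aid-/-, −0.63 ± 0.82 in mbd4-/-, 0.65 ± 1.48 in the Gadd45a knockdown and −0.23 ± 0.81 in wild-type ES cells. Here the knockdown and not wild type was the highest ES array. At probe A_68_P26061532, which lies up to 470 bases past the start, the knockdown reached 2.77, against −2.22 in aid-/-, −1.77 in mbd4-/- and 0.46 in wild type. Its bound signal was above background on 6 of 8 arrays, and faint in aid-/- (12.2) and mbd4-/- (6.88), against 298 in the knockdown and 217 in wild type. Of the 16 probes of the gene region, 12 had bound signal above background in aid-/- and 15 in mbd4-/-. The 3 probes upstream of the start averaged −1.16, −0.43, 0.30 and −0.71 in aid-/-, mbd4-/-, the knockdown and wild type, with SDs over probes of 2.04, 0.75, 0.83 and 0.93, so that the arrays overlapped. Another upstream probe, left out because its input was dim, had 2.17 in aid-/-, −1.93 in mbd4-/-, −0.49 in the knockdown and −0.82 in wild type.

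**Figure D1:**
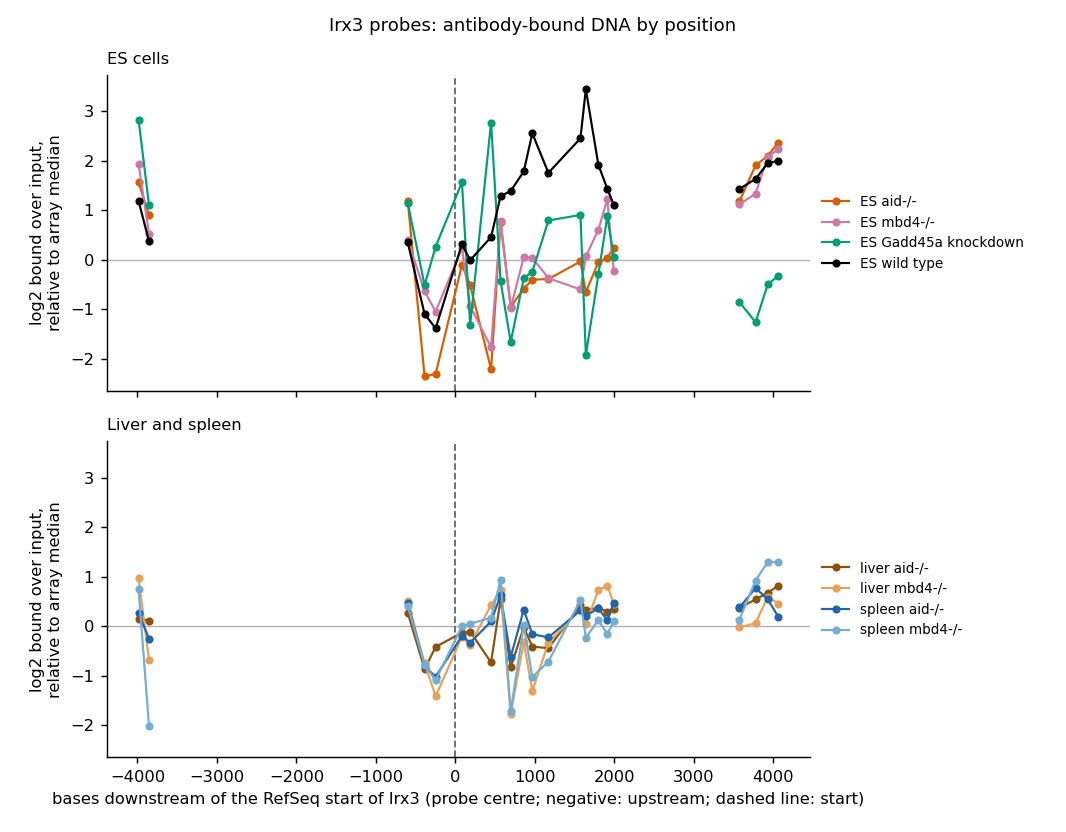
Irx3 probes by position (bases past the start, negative for upstream, horizontal axis), with ES cells above and tissues below, and log2 bound over input relative to the array median (vertical axis), 1 point per probe and array. Wild-type ES cells stand above the other 7 arrays over the stretch 546 to 2013 bases past the start, and the Gadd45a knockdown lies below the other ES arrays 3548 to 4086 bases past it.

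Against wild type, the Irx3 gene region was lower by the size rule in 2 of 3 ES groups, aid-/- and mbd4-/-, where 2.21% and 2.59% of all regions were listed as lower. The difference was −1.63 ± 1.22 (SD over 16 probes) in aid-/-, where 93.75% of probes were lower, and −1.31 ± 1.23 in mbd4-/-, where 81.25% were lower. In the Gadd45a knockdown it was −1.01 ± 1.99 with 68.75% of probes lower, which misses the rule. Of all 13183 regions, 43 differed further downward in aid-/- and 140 did so in mbd4-/-. These 3 differences share the wild-type array and are not independent of each other. Both listed differences fell short of 1 log2 when normexp background correction was used, at −0.94 in aid-/- and −0.79 in mbd4-/-. Only 3 regions of the 13183, 0.0228%, had wild-type ES cells above each of the other 7 arrays by at least 1: Wdr67 (a TBC domain gene, margin 1.78), Zfp263 (a zinc finger gene, 1.56) and the Irx3 gene region (1.01). The Irx3 margin, set by the knockdown, barely met this cut and depended on the processing. Knockdown minus wild type was −1.94 to −0.60 over 9 alternatives, with −0.60 centred on the mode and −0.86 with normexp.

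Downstream of Irx3, the Gadd45a knockdown stood apart instead. The region had means of 1.89 ± 0.51 in aid-/-, 1.69 ± 0.55 in mbd4-/-, −0.74 ± 0.42 in the Gadd45a knockdown and 1.76 ± 0.27 in wild-type ES cells (SD over 4 probes). Liver had 0.60 ± 0.19 in aid-/- and 0.27 ± 0.30 in mbd4-/-, and spleen 0.47 ± 0.25 in aid-/- and 0.91 ± 0.55 in mbd4-/-. The knockdown was the lowest ES array on 4 of 4 probes, and the tissues lay between it and the other 3 ES arrays. By probe, in the order of the sequences above, the knockdown had −0.33, −0.50, −1.26 and −0.86, and wild type 2.00, 1.96, 1.63 and 1.43. In percentiles of all regions the knockdown was at 17.2, aid-/- at 90.96, mbd4-/- at 89.9 and wild type at 94.1. The knockdown minus wild type was −2.49 ± 0.28, and 70 of 13183 regions differed further downward. In aid-/- the difference was 0.13 ± 0.27 and in mbd4-/- −0.06 ± 0.28, neither listed. The aid-/- value turned to −1.72, and was listed as lower, in the deposited value table.

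The pair of probes upstream of Irx3, whose bases lie at −4007 to −3828 from the start, was higher in ES cells than in tissue. It averaged 1.23 in aid-/-, 1.23 in mbd4-/-, 1.97 in the Gadd45a knockdown and 0.78 in wild-type ES cells, against 0.13 in aid-/- liver, 0.14 in mbd4-/- liver, 0.00 in aid-/- spleen and −0.64 in mbd4-/- spleen. On both probes all 4 ES arrays lay above all 4 tissue arrays, as they did on 4.8% of all probes. One of the 2, A_68_P26061567, had bound signal above background on 4 of 8 arrays. The knockdown was here the highest array, 1.19 above wild type, while aid-/- and mbd4-/- each differed from wild type by 0.45.

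The mean of the Irx5 gene region lay below 0 on all 8 arrays. Its means were −0.66 ± 1.31 in aid-/-, −0.72 ± 1.43 in mbd4-/-, −0.74 ± 1.70 in the Gadd45a knockdown and −0.49 ± 1.15 in wild-type ES cells (SD over 32 probes). Liver had −0.31 ± 0.42 in aid-/- and −0.75 ± 1.02 in mbd4-/-, and spleen −0.37 ± 0.70 in aid-/- and −0.55 ± 0.67 in mbd4-/-. The 8 means spanned 0.45 log2. The differences against wild type were −0.17, −0.23 and −0.25 in aid-/-, mbd4-/- and the knockdown, and none was listed. With probes joined up to 250 bp apart the region splits into 5 pieces. The piece that spans the Crnde start (chr8:94879862-94880391, 4 probes, all Crnde-named) was listed as lower in aid-/-. It stood at −1.55 against −0.29 in wild type, a difference of −1.26.

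Single probes of the Irx5 gene region lay far apart. Of the 32 probes, 15 were below 0 on all 8 arrays and 3 were above 0 on all 8. On all 4 ES arrays, 8 probes were below −1. The shares of all probes on the array that pass these cuts were not computed, so the counts only describe this region. Probe A_68_P26065129, which is Crnde-named, had −2.97 in aid-/-, −2.65 in mbd4-/-, −2.89 in the knockdown and −3.54 in wild-type ES cells. That probe had bound signal above background on 5 of 8 arrays, and probe A_68_P26065145 on no array. Of the 32 probes, 20 had it on all 8 arrays. By ES array it was 21 in aid-/-, 25 in mbd4-/-, 28 in the knockdown and 30 in wild type. How far faint bound signal shaped the low values was not tested. Probe A_68_P26065137 was high in contrast, with 1.16 in aid-/-, 1.77 in mbd4-/-, 3.56 in the knockdown and 0.64 in wild type. The 4 probes left out here for dim input on 1 to 3 arrays were as uneven: at A_68_P26065162, aid-/- had 1.06, mbd4-/- −2.40, the knockdown −3.63 and wild type −3.81.

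The low probes lay toward Crnde. Over the first 3.5 kb of the Irx5 gene region (21 probes, a split made after the values were seen) the means were −1.19 in aid-/-, −1.20 in mbd4-/-, −1.15 in the Gadd45a knockdown and −0.86 in wild-type ES cells. Over the 11 probes beyond it they were 0.35, 0.21, 0.06 and 0.23 on the same arrays. In tissue the 2 stretches were closer: −0.43 and −0.08 in aid-/- liver, −0.88 and −0.51 in mbd4-/- liver, −0.59 and 0.04 in aid-/- spleen, and −0.58 and −0.49 in mbd4-/- spleen, with the first stretch lower on each array. The 8 Crnde-named probes averaged −1.31, −0.87, −1.15 and −0.78 in aid-/-, mbd4-/-, the knockdown and wild type. The 24 Irx5-named probes averaged −0.45, −0.67, −0.60 and −0.39.

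**Figure D2:**
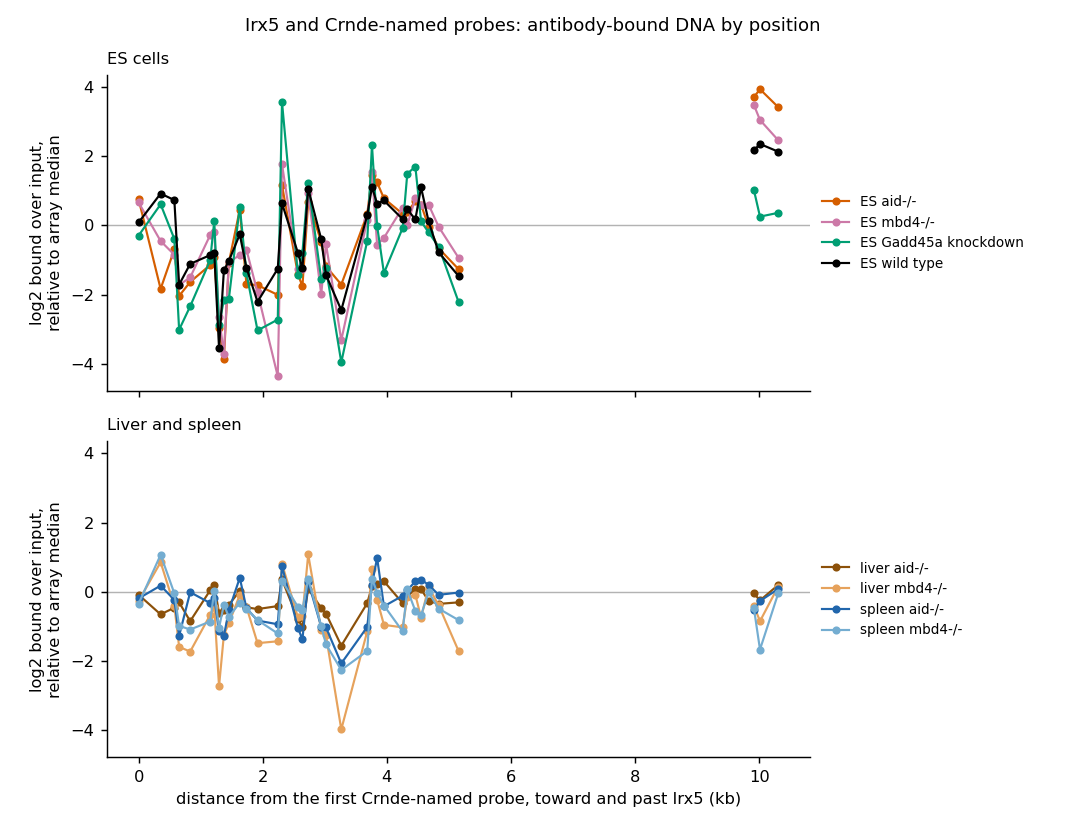
Irx5 and Crnde-named probes by distance from the first Crnde-named probe (kb, horizontal axis), with ES cells above and tissues below, and log2 bound over input relative to the array median (vertical axis), 1 point per probe and array. Of the 32 probes of the gene region, 15 lie below 0 on all 8 arrays (the share of all probes was not computed). The 3 downstream probes lie between 2.13 and 3.94 in aid-/-, mbd4-/- and wild-type ES cells.

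Downstream of Irx5, 4709 bases past the gene region, the aid-/-, mbd4-/- and wild-type ES arrays stood high, the tissues lay below 0 and the Gadd45a knockdown lay nearer to the tissues. The means were 3.69 ± 0.26 in aid-/-, 3.00 ± 0.51 in mbd4-/-, 0.55 ± 0.42 in the Gadd45a knockdown and 2.22 ± 0.12 in wild-type ES cells (SD over 3 probes). Liver had −0.03 ± 0.22 in aid-/- and −0.37 ± 0.50 in mbd4-/-, and spleen −0.24 ± 0.31 in aid-/- and −0.73 ± 0.84 in mbd4-/-. All 4 ES arrays lay above all 4 tissue arrays on each of the 3 probes. In percentiles of all regions the values were 95.5 in aid-/-, 94.2 in mbd4-/-, 74.98 in the knockdown and 95.2 in wild-type ES cells, against 50.1 in aid-/- liver, 30.7 in mbd4-/- liver, 38.2 in aid-/- spleen and 7.27 in mbd4-/- spleen. The fourth probe of this stretch, left out for dim input, was at 1.83, 3.20, −0.21 and 1.86 in aid-/-, mbd4-/-, the knockdown and wild-type ES cells. Liver had 0.60 (aid-/-) and 0.19 (mbd4-/-) there and spleen 2.86 (aid-/-) and 0.37 (mbd4-/-), so that here aid-/- spleen overlapped with ES cells. With it included, ES minus tissue in the limma comparison below was 2.21 (limma, adjusted p = 0.158).

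Against wild-type ES cells, the Irx5 downstream region was higher in aid-/- by 1.47 ± 0.16 and lower in the Gadd45a knockdown, at −1.67 ± 0.48 (SD over 3 probes). In mbd4-/- the difference of 0.78 ± 0.50 missed the size rule. Of 13183 regions, 451 differed further upward in aid-/- and 327 further downward in the knockdown. The order of the ES arrays here was the order of their plateaus, and the part of the plateau in these differences was not tested. Scaled to one plateau, the aid-/- difference was 0.55 and no longer listed. It also missed the rule with normexp correction (0.88), in the deposited table (0.50) and with no filter on input signal (0.96), and the knockdown difference was listed in each setting that gave a value.

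Counted together, 2 of the 4 member regions were listed in aid-/-, 1 higher (Irx5 downstream) and 1 lower (Irx3 gene region), where 8.7% of all regions were higher and 2.21% lower. In mbd4-/- 1 was lower (Irx3 gene region), where 7.64% of all regions were higher and 2.59% lower. In the Gadd45a knockdown both downstream regions were lower, where 6.46% of all regions were higher and 6.46% lower. The knockdown lay below each other ES array by at least 1 in both downstream regions, as it did in 5.7% of all regions. Probes with less than 40% GC had median values of 0.05 on the aid-/- array, −0.91 on the mbd4-/- array, −1.49 on the knockdown array and −1.17 on the wild-type ES array. The Irx3 downstream probes averaged 48.9% GC. After correction for probe GC the knockdown difference there was −2.17 and still listed.

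**Figure D3:**
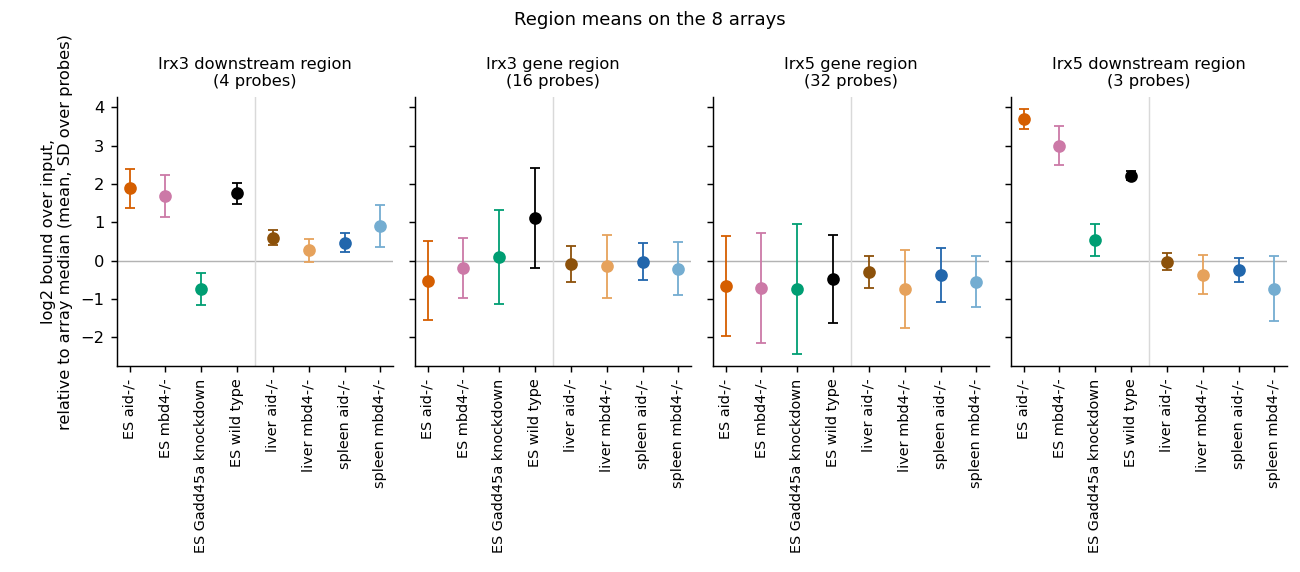
Means of the 4 member regions, 1 panel each (log2 bound over input relative to the array median, vertical axis) on each array, with bars for the SD over probes. The Irx3 gene region is highest in wild-type ES cells, and the Irx5 downstream region is above 0 in ES cells alone.

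**Figure D4:**
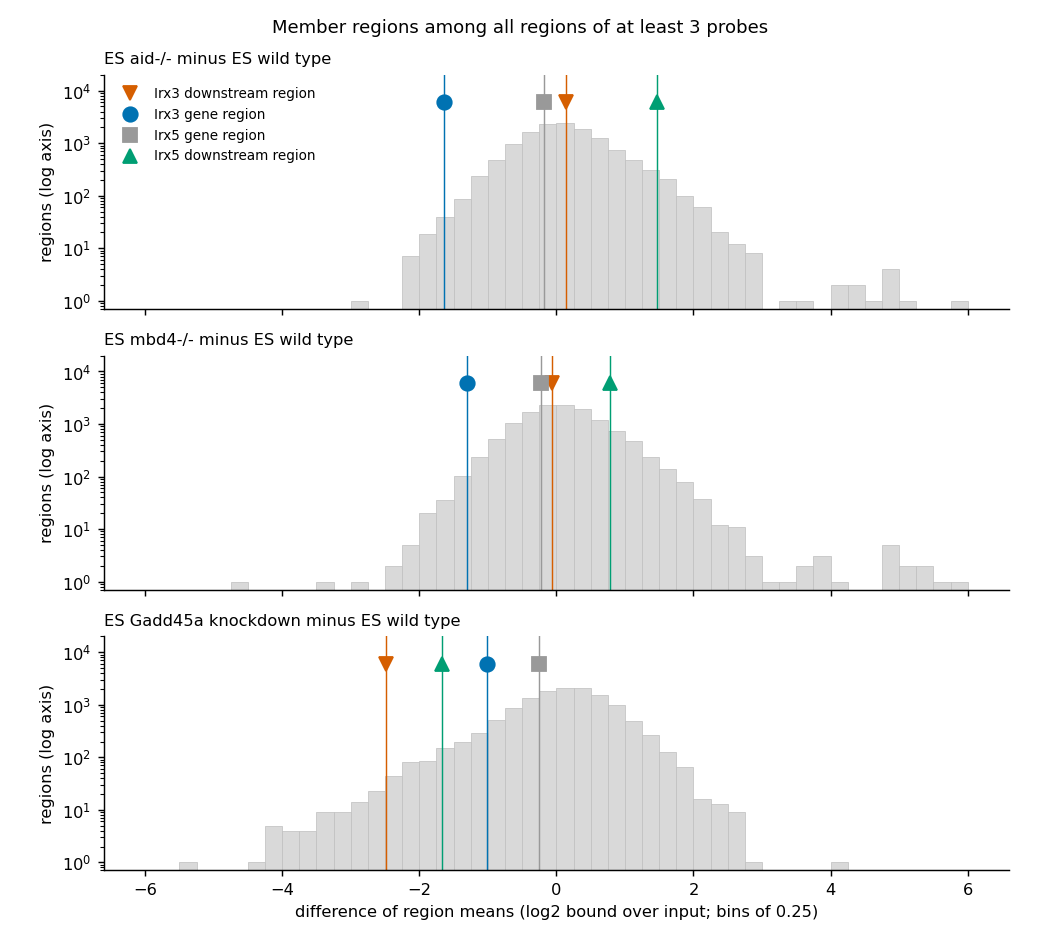
Distribution of the differences of all 13183 regions against wild-type ES cells (log2, horizontal axis) with the 4 member regions marked, 1 panel each for aid-/-, mbd4-/- and the Gadd45a knockdown. Bars count regions in bins of 0.25 log2 on a log axis. The Irx3 gene region lies at −1.63 in aid-/- and −1.31 in mbd4-/-, and the Irx3 downstream region at −2.49 in the knockdown.

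ES cells were then set against liver and spleen with limma over all 8 arrays, so that the replicates of a tissue differ in genotype. The Irx5 downstream region averaged 2.36 in ES cells and −0.34 in tissue, a difference of 2.70 (95% confidence interval 1.34 to 4.07, n = 4 and 4 arrays) that missed the threshold by limma after Benjamini-Hochberg adjustment (adjusted p = 0.108, and 0.0102 to 0.317 over the alternatives). With normexp it was 1.61. Scaled to one plateau it was 2.36 and passed (limma, adjusted p = 0.0126). It was the 1 region of the 4 in which all 4 ES arrays lay above all 4 tissue arrays, against 4.01% of all regions. Without the knockdown, set aside here because of its low value, the other 3 ES arrays lay above all 4 tissue arrays by at least 1. They did so in 0.455% of all regions. In the limma fit without the Gadd45a knockdown, picked out for the same reason, the difference was 3.31 and passed (limma, adjusted p = 0.0161). Of all regions, 0.827% passed as higher in that fit. With any other array left out the difference was 2.26 to 2.83 and did not pass. Over the 6 aid-/- and mbd4-/- arrays with genotype as a covariate it was 3.68 (limma, adjusted p = 0.0102), where 4.95% of all regions passed as higher. Within the largest scan day, which holds 2 ES and 2 tissue arrays, it was 3.09, and on the slide that holds aid-/- ES cells and aid-/- liver it was 3.72.

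The Irx3 downstream region averaged 1.15 in ES cells and 0.56 in tissue, a difference of 0.59 (95% interval −0.69 to 1.87; limma, adjusted p = 0.646). The knockdown lay below all 4 tissue arrays and the other 3 ES arrays above all 4, so the groups overlapped through 1 array. Without that array, a fit picked out here because of its value, the difference was 1.22 (limma, adjusted p = 0.0339), where 0.827% of all regions passed as higher. With any other array left out it was 0.34 to 0.70 (limma, adjusted p = 0.740 to 0.848), and within the largest scan day it was 1.29. In both downstream regions the aid-/-, mbd4-/- and wild-type ES arrays lay above all 4 tissue arrays, as they did in 7.7% of all regions. Over the whole gene regions the differences were 0.24 (−0.53 to 1.01; limma, adjusted p = 0.765) at Irx3 and −0.16 (−0.57 to 0.26; limma, adjusted p = 0.719) at Irx5. The Irx5 mean joins pieces of opposite sign: with probes joined up to 250 bp apart, the 5 pieces, running away from Crnde, gave −0.59, −0.88 (95% interval −1.36 to −0.40), −0.15, 0.70 (0.11 to 1.28) and 0.53 (0.07 to 0.99). None of the 5 passed (limma, lowest adjusted p = 0.136). With all 8 arrays, 500 bp joining and no rescaling to one plateau, no member region passed, where 0.0683% of all regions passed as higher and 0.174% as lower and 15.9% had an unadjusted p under 0.05.

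Liver and spleen did not differ detectably at either gene. Liver minus spleen was −0.26 (95% interval −2.07 to 1.55) in the Irx3 downstream region, −0.00 in the Irx3 gene region, −0.07 in the Irx5 gene region and 0.28 (−1.64 to 2.21) in the Irx5 downstream region. By limma 0 of 13183 regions passed, with 204 (1.55%) at an unadjusted p under 0.05, and 2 arrays a tissue leave these intervals wide. Within mbd4-/- mice, whose liver and spleen shared a slide, the 4 differences were −0.64, 0.06, −0.20 and 0.36. Within aid-/- mice they were 0.13, −0.06, 0.06 and 0.21.

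The genotypes aid-/- and mbd4-/- were compared over ES cells, liver and spleen with tissue as a block. The Irx5 downstream region was 0.51 higher in aid-/- (95% interval 0.09 to 0.92; limma, adjusted p = 0.464), with aid-/- above mbd4-/- in 3 of 3 tissues, by 0.69 in ES cells, 0.33 in liver and 0.49 in spleen. The other differences were 0.03 in the Irx3 downstream region, −0.02 in the Irx3 gene region and 0.23 in the Irx5 gene region. None passed, and by limma 0 of 13183 regions did, with 1415 at an unadjusted p under 0.05. Scan day and genotype cannot be told apart in this comparison.

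Around the genes, 1 other region was listed, as higher in aid-/-, where 8.7% of all regions were. Within 1 Mb of a member probe lay 10 regions without members, and wild-type ES cells were between −1.52 and 0.53 in them. The listed one was a region of Fto (chr8:93837095-93837660), with −0.38 in aid-/- and −1.52 in wild-type ES cells. The difference was 1.14 ± 2.22 (SD over 4 probes), so its probes differed widely. Irx6, the third gene of the cluster, stood at −0.33 in aid-/-, −0.25 in mbd4-/-, −0.28 in the knockdown and −0.60 in wild type, and none of its differences was listed. Of the 9 regions of the fixed neighbour list 1 was higher in aid-/-, that of Fto, where 8.7% of all regions were. In mbd4-/- and the knockdown 0 were higher, where 7.64% and 6.46% of all regions were.

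The other Iroquois genes had 9 regions, 2 each for Irx1 and Irx2, 4 for Irx4 and 1 for Irx6. None was listed in aid-/-, 2 were higher in mbd4-/- and 1 was lower in the Gadd45a knockdown, all of Irx4, where 7.64% of all regions were higher in mbd4-/- and 6.46% lower in the knockdown. Their median differences against wild type were 0.28, 0.35 and −0.19 in aid-/-, mbd4-/- and the knockdown, where all regions had 0.08, 0.06 and 0.12. The Irx4 region at chr13:73409229-73409710 was one of them, with 1.99 in aid-/-, 2.48 in mbd4-/-, 0.11 in the knockdown and 1.11 in wild-type ES cells. Liver had −0.63 in aid-/- and −0.99 in mbd4-/-, spleen had −0.82 in aid-/- and −0.97 in mbd4-/-, and ES minus tissue was 2.28 (limma, adjusted p = 0.0873). Over the 3 Irx4 regions of this kind the ES arrays spanned 1.19 to 1.99 in aid-/-, 1.41 to 2.48 in mbd4-/-, −0.57 to 0.11 in the knockdown and 0.71 to 1.11 in wild type. The other 6 Iroquois regions lay between −0.83 and 0.44 on all 8 arrays.

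**Figure D5:**
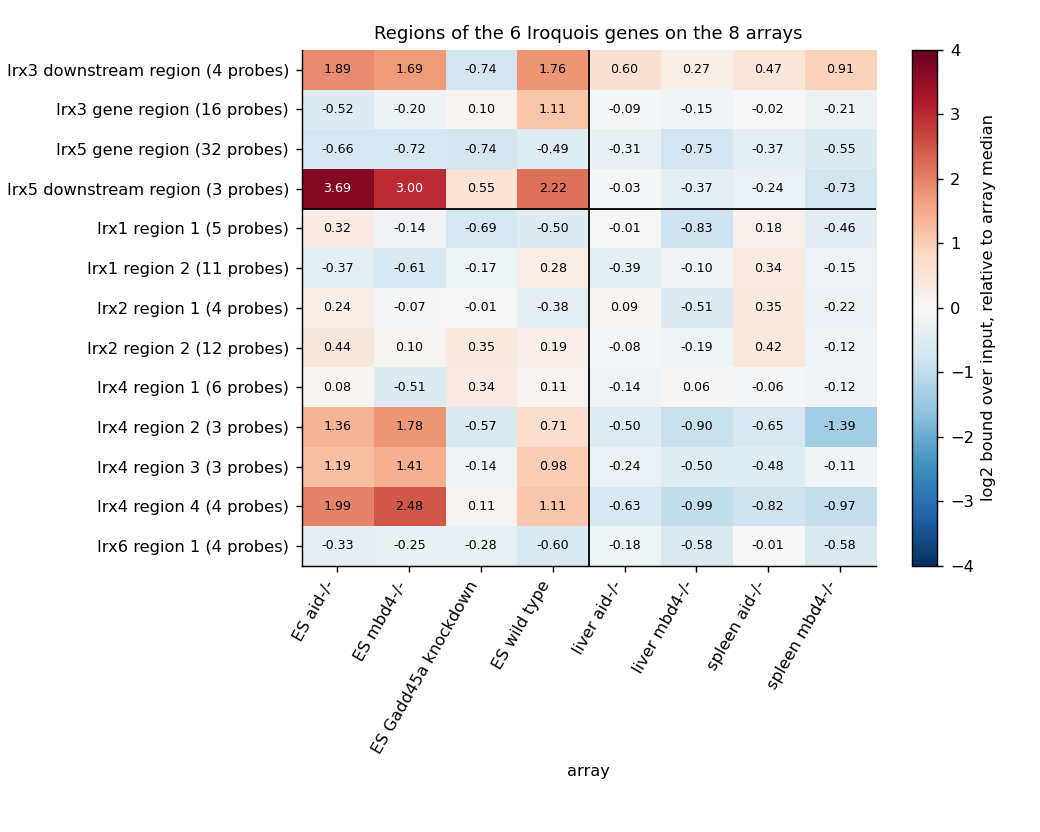
Heatmap of region means (log2 bound over input relative to the array median, colour scale) for the Iroquois regions (rows) on the 8 arrays (columns). The Irx5 downstream region and 3 Irx4 regions are high in aid-/-, mbd4-/- and wild-type ES cells and low in the 4 tissue arrays.

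The other lists hold genes that act with or beside Irx3 and Irx5. For their counts, the shares of all regions listed as higher and lower were 8.7% and 2.21% in aid-/-, 7.64% and 2.59% in mbd4-/- and 6.46% and 6.46% in the knockdown. Among 17 regions of other TALE homeobox genes, 2 were higher in aid-/- (both Meis2, up to 1.79), 3 in mbd4-/- (Meis1 at 1.42 and Meis2 at up to 1.55) and 4 in the knockdown (Meis1 at 1.58, Pbx3 at 1.53, Pknox2 at 1.27 and Tgif2 at 1.15). None was lower. Their medians were 0.24, 0.18 and 0.33 in aid-/-, mbd4-/- and the knockdown. Among 37 regions of neural tube patterning genes, 2 were higher in aid-/- (En1 at 1.40 and Gli2 at 1.26) and 1 lower (Isl1 at −1.02), and 1 was higher in mbd4-/- (En1 at 1.49). In the knockdown 1 was higher (Pax7 at 1.19) and 3 were lower (Pax6 at −1.68, Gli2 at −1.16 and Lhx3 at −1.10). Their medians were 0.15, −0.10 and −0.26. Among 31 regions of limb and heart partners, 3 were higher in aid-/- (Tbx5 at 1.79, Gata6 at 1.25 and Tbx3 at 1.14) and Gata6 was also higher in mbd4-/- (1.31). In the knockdown 1 was higher (Tbx2 at 1.73) and 3 were lower (Gata4 at −1.74, another Tbx2 region at −1.60 and Nkx2-5 at −1.25), and the medians were 0.34, 0.05 and −0.08.

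Regions elsewhere whose values over the 8 arrays were most like those of the members were ranked by Pearson's r, as a description of 8 points that share depth and plateau. The Irx5 downstream region was closest to Nkx2-5 (r = 0.990), Slc17a7 (0.987), Srcin1 (0.986), Epb4.1l4b (0.983) and Pnmal2 (0.983). This region of Nkx2-5, a heart transcription factor gene (chr17:26981132-26981837), had 2.72 in aid-/-, 2.53 in mbd4-/-, 0.64 in the knockdown and 1.89 in wild-type ES cells. Other Nkx2-5 regions differed from it. In the knockdown and wild type they had 0.37 and 0.79 (chr17:26975513-26976816), 1.52 and 1.13 (chr17:26978019-26978507), and −0.46 and −0.61 (chr17:26986645-26988053). The Irx3 downstream region was closest to Kremen2 (0.981), Gm996 (0.978), Rab11fip3 (0.974), Micall2 (0.969) and Mtap1a (0.965). The Irx3 gene region was closest to Gpc5 (0.924), Zfp263 (0.881), Acss1 (0.872), Hmx1 (0.837) and Slain1 (0.819). The Irx5 gene region spanned less than 1 log2 and was not ranked.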

How the data were processed

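Genomic DNA was sonicated, precipitated with an antibody against 5-methylcytidine and hybridised with its input to 2-colour Agilent CpG island arrays, 1 per group, all with input in Cy3, per the labels' protocols. Each deposited scanner file gives intensity per spot, with positions in build mm9, from Agilent Feature Extraction (10.9.1.1, but 10.7.3.1 for the mbd4-/- and knockdown ES arrays), background-subtracted and dye-normalised, per the file headers. The log10 ratio of red over green in the deposited files was used only to check direction. The deposited value table is a score of unstated log base and scale, with medians of −0.21 to −0.03 per array and r = 0.901 to 0.974 with the scanner log ratio, and served as an alternative once brought to the scanner scale by a single factor. Steps between scanner and table are not given in the sources.

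Of 88737 probes, 326 without a position, 132 with an outlier mark and 7174 whose input was dim on at least 1 array were dropped, which kept 81105. Log2 ratios of the processed signals were centred on each array's median, with no loess or quantile step. Regions of at least 3 probes (13183 of 15534) were tested with limma 3.58.1 in R 4.3.3 with Benjamini-Hochberg adjustment over all of them, at 0.05. P-values of the tissue comparisons without genotype in the model measure the spread between arrays of different genotype. Those of the genotype comparison, and of the 6-array fit with genotype as a covariate, measure how the genotype difference varies between tissues. The number of arrays limits the precision of all of them. The median input signal was 96.7 to 251 and the bound signal 35.4 to 111. The normexp alternative (offset 50) used median signals, because 6 files lack mean signals. Other alternatives were the centring, the plateau, the filters, the median of probes, 250 bp joining, a GC correction, slide and scan day. The script was tested on simulated data. Sequences are those of the array design and of RefSeq (GRCm38.p6).

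Irx3 and Irx5 and the gene lists were chosen with earlier results of these data known. Other genes are named by a written rule: list regions past the size rule, at most 6 a list by size of the difference, and the 5 most alike regions by r. The lists are the Iroquois family, other TALE homeobox genes, neighbours, neural tube patterning, limb and heart partners, and markers of ES cells, liver, spleen and blood, and fibroblasts. The result of 1 gene on these lists is not reported here.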

Additional observations from a re-analysis of the deposited data

Results flagged for a closer look

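In the Irx3 downstream region the Gadd45a knockdown stood at −0.74, far below the other 3 ES arrays, with a gap of 0.925 of the range of the 4 ES arrays, above Dixon's limit for 4 values. The 4 arrays are of 4 genotypes and not replicates. It was 1 of 8 sets of 4 arrays examined, and chance marks about 1 in 20 such sets. Its cause was not tested.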

How the results depend on the processing

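Of 361 recomputed values for the member regions, 337 were labelled the same, 19 moved, 5 passed the threshold newly and 0 reversed a call. For differences between ES arrays, the same means a change smaller than the SD over probes, even where the size rule was lost or newly met. For limma it means an unchanged call, whatever the change in size. The aid-/- minus wild type difference of the Irx5 downstream region was 0.88 with normexp, 1.67 centred on the mode, 0.55 at one plateau, 0.50 in the deposited table and 0.96 with no input filter, and was listed in 4 of 8 alternatives. The knockdown minus wild type difference was −1.93 with normexp, −2.09 centred on the mode and −2.17 with GC correction in the Irx3 downstream region (listed in 10 of 10), and −2.64 in the deposited table in the Irx5 downstream region (listed in 8 of 8). The Irx3 gene region was listed in 8 of 9 alternatives in aid-/- and in mbd4-/-, and in the knockdown, as a whole, when bound signal had to be above background (−1.94). ES minus tissue in the Irx3 downstream region was 1.23 over the 6 aid-/- and mbd4-/- arrays (limma, adjusted p = 0.0409) and 0.34 to 1.22 with each array left out, with adjusted p from 0.0339 to 0.882 over all alternatives. In the Irx5 downstream region it was 2.36 at one plateau (limma, adjusted p = 0.0126), 3.68 over the 6 arrays and 2.26 to 3.31 with each array left out, with adjusted p from 0.0102 to 0.317. With slide as a block it was 2.88 (limma, adjusted p = 0.0705) and with scan day 3.09 (limma, adjusted p = 0.0929). Where 1 array of a tissue was left out, the other is assumed to vary like the rest. The causes were not tested. Joined at 250 bp, the Irx5 downstream region gives no value, and the Irx3 gene region splits into 3 pieces. They had −2.17, −2.17 and −0.45 in aid-/- and −1.86, −1.91 and 0.28 in mbd4-/-, the first 2 listed as lower, and −2.15, −1.40 and 1.01 in the knockdown, the first 2 listed as lower and the last as higher.

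Counts over all regions moved with the setting: in aid-/- 1147 regions were higher and 291 lower, against 264 and 3 with normexp and 461 and 125 at one plateau. Centring on the mode, which shifts the median difference of all regions to 0.28 in aid-/- and 0.53 in the knockdown (0.08 and 0.12 as reported), made 92.7% of listed regions higher in aid-/- (79.8% as reported) and 85.1% in the knockdown (50% as reported). In the deposited table these shares were 29.9% and 29.8%. ES minus tissue passed as higher in 9 regions and lower in 23, against 0 and 1 with normexp, 64 and 330 at one plateau, 109 and 65 without the knockdown and 0 and 0 with scan day. The genotype comparison gave 80 higher and 992 lower when either of its ES arrays was left out. Such a fit rests on liver and spleen alone and leaves 1 degree of freedom for the spread. Scan day and genotype cannot be told apart in it. Slide and scan day were not run for it. No pairing by replicate number was possible, because each group is 1 array and shares only the number 1. Arrays were matched by tissue in the genotype comparison, and by slide or scan day in the differences given within these.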

Other observations

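The marker lists measure islands and not expression, and few of their genes had a region: 3 of 10 for ES cells, 1 of 8 for liver (F2), 2 of 8 for spleen and blood and 4 of 6 for fibroblasts, so the labelled tissues could not be checked with them. Of the 8 ES marker regions, 5 were higher in aid-/- and 5 in mbd4-/- than in wild-type ES cells, and 2 were lower in the Gadd45a knockdown. Most of the higher regions and both lower ones belong to Sall4, so these counts are not of separate genes. Of all regions, 8.7% were higher in aid-/-, 7.64% higher in mbd4-/- and 6.46% lower in the knockdown, the background for the counts that follow too. F2, which encodes prothrombin, stood at 4.47 in aid-/-, 4.49 in mbd4-/-, 1.44 in the knockdown and 3.43 in wild-type ES cells, and at 1.62 and 3.23 in aid-/- and mbd4-/- liver. Of the 3 spleen and blood regions, 2 were higher in aid-/-, 1 in mbd4-/- and 1 was lower in the knockdown. Of the 6 fibroblast regions, 2 were higher in aid-/-, and 0 in mbd4-/- and in the knockdown. By limma 0 regions of any list passed in the comparisons of ES cells with tissue, of liver with spleen and of the genotypes.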
